A study of Mus musculus with 14 samples.

Results

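The genes described here are 39 lysosomal hydrolases, their activator proteins and lysosomal membrane proteins, with the cathepsins left out, followed in cultured mouse macrophages that did or did not carry a TFEB transgene. They were chosen by name, and their probes were found on the arrays through the RefSeq accession that each probe carries. The 39 genes had 52 probes, and 38 of the genes had a probe that was well above background throughout 1 or more of the groups, out of 15834 genes tested in the whole experiment. The member without such a probe was Arsb, arylsulfatase B, whose 2 probes were well above background on 1 and 5 of the 14 arrays. No change could be read for it.

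The macrophages were grown with M-CSF, a macrophage growth factor, from bone marrow of female C57BL/6 mice aged 8 weeks, and after a week they were replated and treated for 24 hours. The 4 groups were transgenic macrophages (LysM-Double-Cre x TFEB transgene+) with tumour material, transgenic macrophages in DMEM alone, wild-type macrophages (LysM-Double-Cre x TFEB transgene-) with tumour material, and wild-type macrophages in DMEM alone. All 4 groups came from the LysM-Double-Cre line, in which Cre is made in myeloid cells, so the genotypes differ in the TFEB transgene on a shared Cre background. The labels do not state where the transgene lies in the genome, and its product and any other difference between the transgenic and wild-type mice cannot be told apart. Tumour material was DMEM with medium conditioned by EO771 cells, a mouse mammary tumour line, and a lysate of tumour, so the parts of conditioned medium and of lysate cannot be told apart. RNA was hybridised to 1-colour Agilent arrays, 14 in all for 11 replicates: 2 transgenic replicates with tumour material and 3 replicates in each other group. In 3 of the groups 1 replicate was taken to have a second array, which the labels do not say outright. Replicate 1 of the transgenic group with tumour material was not analysed here. The series describes the replicates as biological, without saying which animals they came from.

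Lysosomes break down macromolecules in an acid lumen, and each hydrolase there takes apart one kind of bond in a glycan, lipid, sulfated sugar or protein. Membrane proteins hold the organelle together and carry the products out to the cytosol. TFEB is a transcription factor of the MiT/TFE family that binds E-box sites of the CLEAR type in the promoters of many lysosomal genes. Macrophages take up and digest debris, which makes these enzymes central to what the cells do.

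Every level below is the log2 of the probe's signal over the 75th percentile of its array, so 1 unit is a 2-fold change. Levels of different probes cannot be set against each other, and a gene's values are those of its brightest probe unless stated. A gene was called higher or lower where limma's adjusted p, corrected over all 15834 genes, was under 0.05.

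Between 35.5 and 40.2% of the spots on an array were well above background, and no probe was saturated. Arrays of the same group correlated at 0.979 to 0.994, apart from pairs with replicate 1 of the transgenic controls, which correlated at 0.957 to 0.959. The arrays of slide column 4, which were replicates 1 and 2 of the transgenic controls and the second array of replicate 3 of the transgenic group with tumour material, had a detrending error of 0.253 to 0.331, against 0.0964 to 0.126 on the others. The arrays lay on 2 slides, and all arrays of the transgenic group with tumour material lay on slide 2, so the slide was a term of the fit. All 9 macrophage markers were above background. Their summed level (on the linear scale) was 2279 to 2376 in transgenic macrophages with tumour material and 1746 to 2014 in transgenic controls. It was 2452 to 2736 in wild-type macrophages with tumour material and 2066 to 2557 in wild-type controls. Cd68 is both a marker here and a gene of the set described, and bright probes weigh most in a sum. The markers did not move together. With tumour material 4 were called higher and 1 lower in transgenic macrophages (log2 differences -2.26 to 2.55), where 15.1% of all genes were called higher and 10.2% lower. In wild-type macrophages 4 were called higher and 2 lower (-3.77 to 2.09), where 23.2% of all genes were called higher and 16.8% lower. Transgenic macrophages had 3 called lower than wild-type macrophages in control medium, 2 with tumour material, and 0 higher in either. Of all genes, 5.24% were called lower in control medium and 2.56% with tumour material, and 3.59% and 1.97% higher. None of the 6 epithelial markers of tumour cells was above background on all arrays of any group. Markers of neutrophils and their precursors (8 of 9 kept) summed to 31.6 to 35.0 in transgenic macrophages with tumour material and 176 to 567 in transgenic controls, and to 53.2 to 90.1 in wild-type macrophages with tumour material and 232 to 246 in wild-type controls. Markers of dividing cells (4 of 5 kept) summed to 3.02 to 3.62 and 12.1 to 27.5 in the same transgenic groups, and to 2.82 to 3.03 and 5.10 to 5.11 in the wild-type groups. Fibroblast markers (5 of 6 kept) summed to 7.65 to 8.76 and 0.896 to 9.72 in the transgenic groups, and to 33.0 to 43.2 and 1.36 to 22.3 in the wild-type groups. The part of these markers in the results below was not tested, and in bulk RNA fewer cells of a type and less RNA per cell cannot be told apart.

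The promoter windows of the genes were searched for the letters of the E-box that TFEB is known to bind. RefSeq windows on GRCm38.p6, each of 300 bases around the start of the gene, were found for 34 of the 39 genes, and not for Aga, Asah1, Galns, Hgsnat and Npc1. The 7-base motif TCACGTG, searched on both strands, was in the windows of 8 of these 34 genes (23.5%), against 4.29% of the windows of all 27025 genes. The longer GTCACGTG, which contains it, was in 7 (20.6%, against 2.55%). The core CACGTG, which all of these contain, was in the same 8 genes (23.5%, against 8.09%). The related motif TCATGTG was in 5 (14.7%, against 4.31%): Gla, Grn, Ppt1, Scarb2 and Tpp1. The stretches around the matches are printed 5′ to 3′ on the strand of the gene, in lower case with each match to TCACGTG or TCATGTG, on either strand, in capitals. They are shown for the 8 holders of TCACGTG and for Ppt1 and Tpp1, which held TCATGTG and were called in the response to tumour material.
Lamp1 (chr8:13159077-13159173, plus strand): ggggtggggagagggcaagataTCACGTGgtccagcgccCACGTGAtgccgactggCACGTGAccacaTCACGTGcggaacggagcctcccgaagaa
Cln3 (chr7:126583329-126583407, minus strand): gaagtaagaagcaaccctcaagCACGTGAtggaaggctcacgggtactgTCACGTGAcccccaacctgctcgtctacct
Gla (chrX:134601171-134601255, minus strand): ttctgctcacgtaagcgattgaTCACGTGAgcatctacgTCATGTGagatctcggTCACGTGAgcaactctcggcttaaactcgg
Gaa (chr11:119267800-119267850, plus strand): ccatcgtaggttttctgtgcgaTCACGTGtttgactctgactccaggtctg
Glb1 (chr9:114401007-114401057, plus strand): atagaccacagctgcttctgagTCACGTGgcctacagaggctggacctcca
Naglu (chr11:101069998-101070048, plus strand): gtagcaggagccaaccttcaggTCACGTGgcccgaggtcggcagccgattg
Sgsh (chr11:119355511-119355561, minus strand): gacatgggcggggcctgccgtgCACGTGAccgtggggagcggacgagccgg
Arsa (chr15:89477413-89477463, minus strand): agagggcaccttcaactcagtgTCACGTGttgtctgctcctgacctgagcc
Ppt1 (chr4:122836218-122836268, plus strand): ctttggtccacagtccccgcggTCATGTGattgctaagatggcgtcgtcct
Tpp1 (chr7:105752190-105752253, minus strand): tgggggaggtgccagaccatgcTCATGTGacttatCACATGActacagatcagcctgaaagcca
A match is a run of letters and not a measured binding site.

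Tumour material changed many of these genes in both genotypes, and in wild-type macrophages more of them fell than rose. In transgenic macrophages 6 of the 38 genes were called higher (15.8%) and 9 lower (23.7%) with tumour material than in DMEM. Of all genes, 15.1% were called higher and 10.2% lower there. In wild-type macrophages 6 were called higher (15.8%) and 17 lower (44.7%), where 23.2% of all genes were called higher and 16.8% lower. The share called higher was thus near that of all genes in transgenic macrophages and below it in wild-type macrophages. The 6 called higher were the same in both genotypes: Acp2, Aga, Galns, Laptm4a, Ppt1 and Sgsh. Not all of these calls were firm. With quantile normalisation or the deposited table, Aga, Laptm4a and Ppt1 lost the call in wild-type macrophages and Galns lost it in transgenic macrophages. Sgsh was called on its brightest probe and not with the mean of its probes. The 9 that fell in transgenic macrophages (Gm2a, Gusb, Hexa, Ids, Laptm5, Lipa, Man2b1, Slc17a5 and Tpp1) were all among the 17 that fell in wild-type macrophages, of which they made up 52.9%. The median difference over the 38 genes was 0.02 in transgenic macrophages (0.06 over all genes tested) and -0.38 in wild-type macrophages (0.05 over all genes tested). The transgenic median changed sign with the processing, between -0.17 and 0.03, and the wild-type median stayed between -0.49 and -0.30. With quantile normalisation the wild-type split was 3 called higher and 22 lower. Over the 38 genes the responses of the 2 genotypes had a Pearson correlation of 0.848 and a Spearman correlation of 0.754. The Pearson correlation over all genes was 0.815. The 2 responses share no group, but both came from 1 fit with a common slide term, so they are not independent estimates. Leaving out replicate 3 of the wild-type group with tumour material left 3 called higher in wild-type macrophages. In transgenic macrophages, leaving out replicate 3 of the group with tumour material left 3 called higher, and leaving out replicate 3 of the controls left 5 called higher and 4 lower, so which direction held more calls there rested on that library. In transgenic macrophages 21 of the 38 differences were above 0 and 17 below. Within slide 2 alone, with fewer arrays, 2 were called higher and 3 lower in transgenic macrophages. In wild-type macrophages the same slide gave 0 higher and 1 lower, and 2 higher and 9 lower at limma's unadjusted p of 0.05, which 3385 of the 15834 genes passed. Within slide 1, which holds no transgenic array with tumour material, 5 were called higher and 15 lower in wild-type macrophages.

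**Figure D1:**
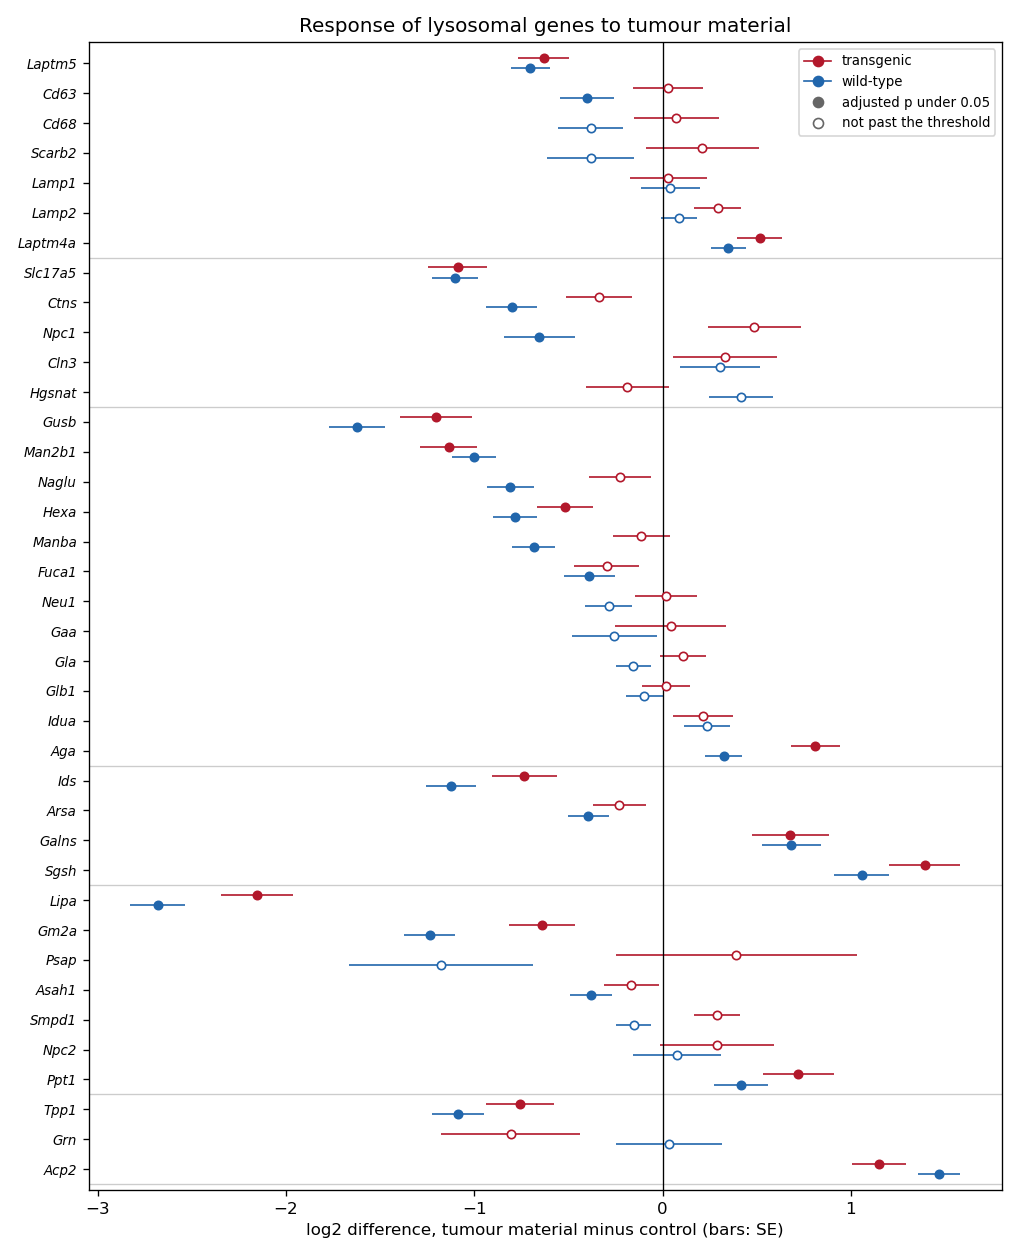
Log2 difference between tumour material and control for each of the 38 genes in transgenic (red) and wild-type (blue) macrophages, with the SE of the fit as bars, grouped from top to bottom into membrane proteins, transporters and other membrane-bound proteins, glycosidases, sulfatases, lipid hydrolases with their activators, and the remaining enzymes. Filled points had an adjusted p under 0.05; Lipa lies farthest to the left in both genotypes, at -2.16 and -2.68.

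Among the 7 membrane proteins, Laptm4a was called higher and Laptm5 lower in both genotypes, and the structural proteins Lamp1 and Lamp2 were not called. Lamp1, an abundant glycoprotein of the lysosomal membrane, stood at 7.61 and 7.57 in transgenic macrophages with tumour material, against 7.32, 8.18 and 7.59 in transgenic controls, and at 7.77, 7.86 and 7.70 in wild-type macrophages with tumour material, against 7.81, 7.86 and 7.60 in wild-type controls. The ranges overlapped in each genotype. The differences were 0.03 (95% interval -0.41 to 0.48) in transgenic and 0.04 (-0.30 to 0.38) in wild-type macrophages. Cd68, the macrosialin of macrophage endosomes and lysosomes, stood at 10.04 and 10.07 in transgenic macrophages with tumour material, against 9.82, 10.12 and 9.80 in transgenic controls, and at 9.82, 10.06 and 9.76 in wild-type macrophages with tumour material, against 10.0004, 9.99 and 10.49 in wild-type controls. These ranges overlapped too, with differences of 0.07 (95% interval -0.42 to 0.57) and -0.38 (-0.76 to -0.004), the second with an adjusted p of 0.1.

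Laptm5, a multi-pass protein of haematopoietic lysosomes, had 5.18 and 5.16 in transgenic macrophages with tumour material, against 6.07, 5.87 and 5.91 in transgenic controls, and 5.68, 5.67 and 5.46 in wild-type macrophages with tumour material, against 6.24, 6.42 and 6.21 in wild-type controls. All treated replicates lay below all controls of their genotype, with differences of -0.63 (SE 0.13, adjusted p = 0.00486) and -0.70 (SE 0.10, adjusted p = 0.000217). Its relative Laptm4a went the other way, with 4.81 and 4.97 in transgenic macrophages with tumour material, against 4.47, 4.67 and 4.44 in transgenic controls, and 5.14, 5.16 and 4.99 in wild-type macrophages with tumour material, against 4.83, 4.75 and 4.65 in wild-type controls. Again the groups did not overlap, and the differences were 0.52 (SE 0.12, adjusted p = 0.00789) and 0.35 (SE 0.09, adjusted p = 0.00961). The tetraspanin Cd63 was called lower in wild-type macrophages, with a log2 difference of -0.40 (SE 0.14, adjusted p = 0.0426), and had a difference of 0.03 in transgenic macrophages. Scarb2, which carries glucocerebrosidase to the lysosome, and Lamp2 were not called in either genotype. Some of these calls rested on 1 library: Laptm5 had an adjusted p of 0.058 in transgenic macrophages without replicate 3 of their controls, and Laptm4a one of 0.102 without replicate 3 of the transgenic group with tumour material. In wild-type macrophages Laptm4a had adjusted p-values of 0.055 without replicate 3 of the group with tumour material and 0.066 without control replicate 3, and the call of Cd63 was lost without any 1 of the wild-type replicates or without transgenic tumour replicate 3 (adjusted p 0.055 to 0.189).

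Among the 5 transporters and other membrane-bound proteins, Slc17a5 fell in both genotypes and Ctns and Npc1 passed the test in wild-type macrophages. Slc17a5 encodes sialin, which exports sialic acid. It stood at 1.47 and 1.13 in transgenic macrophages with tumour material, against 2.07, 2.18 and 2.26 in transgenic controls, and at 1.41, 1.42 and 1.51 in wild-type macrophages with tumour material, against 2.41, 2.46 and 2.71 in wild-type controls. No treated replicate reached the lowest control of its genotype, and the differences were -1.09 (SE 0.16, adjusted p = 0.000394) and -1.10 (SE 0.12, adjusted p = 2.4e-05). Ctns, the cystine exporter, was lower, with a log2 difference of -0.80 in wild-type macrophages (SE 0.13, adjusted p = 0.000601) and had a difference of -0.34 in transgenic macrophages (adjusted p = 0.191). Npc1, which passes cholesterol out of the lysosome, had a difference of 0.49 in transgenic macrophages (adjusted p = 0.177) and was lower, with a log2 difference of -0.66 in wild-type macrophages (SE 0.19, adjusted p = 0.0156; 0.124 without replicate 3 of the wild-type group with tumour material). Cln3, the membrane protein of juvenile Batten disease, and Hgsnat were not called in the response to tumour material. Hgsnat was called higher in wild-type macrophages (0.43) without transgenic control replicate 1, 2 or 3 (limma's adjusted p 0.0018 to 0.049).

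The 12 glycosidases and glycosylasparaginase held more genes that fell than rose. In transgenic macrophages 3 were called lower (25%) and 1 higher (8.33%), where 10.2% of all genes were called lower and 15.1% higher. In wild-type macrophages 6 were called lower (50%) and 1 higher (8.33%), where 16.8% of all genes were called lower and 23.2% higher. Gusb, β-glucuronidase, stood at 6.74 and 6.65 in transgenic macrophages with tumour material, against 7.42, 8.17 and 8.02 in transgenic controls, and at 6.51, 6.51 and 6.47 in wild-type macrophages with tumour material, against 8.10, 8.11 and 8.13 in wild-type controls. The groups were far apart in both genotypes, and Gusb was 2.30-fold lower in transgenic macrophages (log2 -1.20, SE 0.19, adjusted p = 0.000801) and 3.08-fold lower in wild-type macrophages (log2 -1.62, SE 0.15, adjusted p = 5.71e-06). Man2b1, an α-mannosidase, had 6.29 and 6.18 in transgenic macrophages with tumour material, against 7.25, 7.69 and 7.34 in transgenic controls, and 6.24, 6.29 and 6.22 in wild-type macrophages with tumour material, against 7.25, 7.37 and 7.18 in wild-type controls. Its treated levels were close to each other in the 2 genotypes and below every control, with differences of -1.14 (SE 0.15, adjusted p = 0.000216) and -1.0 (SE 0.12, adjusted p = 3.72e-05).

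Naglu, which removes N-acetylglucosamine from heparan sulfate, stood at 4.25 and 4.58 in transgenic macrophages with tumour material, against 4.78, 5.02 and 4.59 in transgenic controls, and at 4.18, 4.09 and 4.07 in wild-type macrophages with tumour material, against 4.89, 4.95 and 4.91 in wild-type controls. The wild-type groups were well apart, with a difference of -0.81 (SE 0.12, adjusted p = 0.000318), while the transgenic groups nearly met, with a difference of -0.23 (adjusted p = 0.35). The difference between those responses was 0.58 (SE 0.21) and did not pass the test (adjusted p = 0.229). Hexa, the α subunit of β-hexosaminidase A, was called lower in both genotypes, with a log2 difference of -0.52 (adjusted p = 0.0248) in transgenic and -0.78 (adjusted p = 0.000215) in wild-type macrophages; the transgenic call was lost without transgenic control replicate 3 (-0.26, adjusted p = 0.289), either transgenic replicate with tumour material (0.052 and 0.181) or wild-type tumour replicate 3 (0.057). Manba, a β-mannosidase, and Fuca1, an α-fucosidase, were called lower in wild-type macrophages, with log2 differences of -0.68 (adjusted p = 0.00062) and -0.39 (adjusted p = 0.0362), and had differences of -0.11 and -0.30 in transgenic macrophages that did not pass. The call of Fuca1 was lost without any 1 of 6 replicates, with adjusted p-values of 0.062 to 0.188.

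The glycosidase group's one riser was Aga, aspartylglucosaminidase, which cuts the bond between a glycan and asparagine. It stood at 2.79 and 3.04 in transgenic macrophages with tumour material, against 2.03, 2.14 and 2.15 in transgenic controls, and at 2.82, 2.76 and 2.94 in wild-type macrophages with tumour material, against 2.50, 2.42 and 2.62 in wild-type controls. Treated replicates lay above all controls of their genotype, by 0.81 (SE 0.13, adjusted p = 0.000804) in transgenic and 0.32 (SE 0.10, adjusted p = 0.0224) in wild-type macrophages. The wild-type call of Aga was lost without replicate 1 or 3 with tumour material or control replicate 1 or 2 (adjusted p 0.052 to 0.195). Gaa, Gla, Glb1, Neu1 and Idua, which act on glycogen, α-galactosides, β-galactosides, sialic acids and iduronic acid, were not called in either genotype, with differences between -0.29 and 0.24.

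The 4 sulfatases with a measurable probe moved in opposite directions. Sgsh, the sulfamidase of heparan sulfate, stood at 8.33 and 8.33 in transgenic macrophages with tumour material, against 6.74, 7.38 and 7.12 in transgenic controls, and at 8.92, 8.91 and 8.56 in wild-type macrophages with tumour material, against 7.85, 7.80 and 7.54 in wild-type controls. On this probe it was higher in every treated replicate, by 1.39 (SE 0.19, adjusted p = 0.000232) and 1.06 (SE 0.14, adjusted p = 0.000127). A second, dimmer probe for the same transcript was lower instead, with a log2 difference of -1.54 in transgenic and -1.69 in wild-type macrophages, so the direction for Sgsh depends on the probe. Galns, which desulfates keratan sulfate, had 3.18 and 3.63 in transgenic macrophages with tumour material, against 2.70, 3.21 and 2.86 in transgenic controls, and 3.45, 3.58 and 3.23 in wild-type macrophages with tumour material, against 2.74, 2.94 and 2.53 in wild-type controls. The transgenic groups overlapped and the wild-type groups did not, with differences of 0.68 (SE 0.21, adjusted p = 0.0304) and 0.68 (SE 0.16, adjusted p = 0.00457).

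Ids, the iduronate sulfatase, had 0.41 and 0.49 in transgenic macrophages with tumour material, against 1.08, 1.24 and 1.41 in transgenic controls, and 0.28, 0.14 and 0.19 in wild-type macrophages with tumour material, against 1.31, 1.34 and 1.33 in wild-type controls. Its groups were apart in both genotypes, with differences of -0.73 (SE 0.17, adjusted p = 0.00837) and -1.12 (SE 0.13, adjusted p = 3.89e-05). Arsa, arylsulfatase A, was called lower in wild-type macrophages, with a log2 difference of -0.39 (adjusted p = 0.0127). The transgenic calls of Galns and Ids were lost without replicate 3 of the transgenic group with tumour material (adjusted p 0.408 and 0.066) or transgenic control replicate 3 (0.069 and 0.092), and that of Galns also without wild-type tumour replicate 1 or 3 (0.054 and 0.069). The wild-type call of Galns was lost without replicate 3 of the wild-type controls (0.056), and that of Arsa without transgenic or wild-type tumour replicate 3 or wild-type control replicate 3 (0.051, 0.061 and 0.081).

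The farthest fall of all 38 genes was that of Lipa, lysosomal acid lipase, which splits cholesteryl esters and triglycerides. It stood at 4.42 and 4.45 in transgenic macrophages with tumour material, against 6.92, 6.30 and 6.71 in transgenic controls, and at 3.91, 4.09 and 3.77 in wild-type macrophages with tumour material, against 6.60, 6.73 and 6.47 in wild-type controls. Each treated replicate was below each control by well over the spread within groups. Lipa was 4.45-fold lower in transgenic macrophages (log2 -2.16, SE 0.19, adjusted p = 9.67e-06) and 6.41-fold lower in wild-type macrophages (log2 -2.68, SE 0.15, adjusted p = 9.63e-08). Both calls were kept under every setting tried and without any 1 replicate, with adjusted p-values up to 0.0106 and 0.0208.

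Gm2a, the activator that lifts ganglioside GM2 for hexosaminidase, had 1.21 and 1.05 in transgenic macrophages with tumour material, against 2.03, 1.51 and 1.87 in transgenic controls, and 1.31, 1.02 and 1.09 in wild-type macrophages with tumour material, against 2.43, 2.45 and 2.28 in wild-type controls. Treated levels were alike in the 2 genotypes and the transgenic controls lay between them and the wild-type controls. The differences were -0.64 (SE 0.17, adjusted p = 0.0184) in transgenic and -1.24 (SE 0.13, adjusted p = 2.03e-05) in wild-type macrophages; the transgenic one had adjusted p-values of 0.153 without replicate 3 of the group with tumour material and 0.146 without control replicate 3. Ppt1, the palmitoyl-protein thioesterase, stood at 3.58 and 3.41 in transgenic macrophages with tumour material, against 2.13, 2.85 and 2.85 in transgenic controls, and at 3.72, 3.83 and 3.87 in wild-type macrophages with tumour material, against 3.40, 3.24 and 3.48 in wild-type controls. It was above the controls in every treated replicate, by 0.72 (SE 0.19, adjusted p = 0.0148) and 0.42 (SE 0.14, adjusted p = 0.0364). The wild-type call of Ppt1 was lost without any 1 wild-type replicate or transgenic tumour replicate 3 (adjusted p 0.062 to 0.144), and the transgenic call without tumour replicate 3 of either genotype (0.055 and 0.052).

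Asah1, acid ceramidase, was called lower in wild-type macrophages, with a log2 difference of -0.38 (adjusted p = 0.0169), a call lost without any 1 of 4 replicates (0.054 to 0.135). Smpd1, acid sphingomyelinase, and Npc2, the soluble cholesterol carrier, were not called. Psap, the precursor of the saposins, was too variable to read: its replicates spread over 6.79, 6.12 and 8.17 in transgenic controls and over 6.35, 7.23 and 6.18 in wild-type macrophages with tumour material, and its wild-type difference of -1.18 had an SE of 0.49 (adjusted p = 0.0754). That difference passed without transgenic control replicate 1, 2 or 3, wild-type control replicate 2 or wild-type tumour replicate 2 (limma's adjusted p 0.027 to 0.048).

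Of the remaining enzymes, Acp2 rose and Tpp1 fell in both genotypes. Acp2, lysosomal acid phosphatase, stood at 6.08 and 6.04 in transgenic macrophages with tumour material, against 5.10, 5.06 and 4.70 in transgenic controls, and at 6.06, 6.17 and 6.13 in wild-type macrophages with tumour material, against 4.53, 4.57 and 4.77 in wild-type controls. Treated levels were about a unit or more above the controls, with differences of 1.15 (2.22-fold, SE 0.14, adjusted p = 0.000138) and 1.47 (2.77-fold, SE 0.11, adjusted p = 1.25e-06), and the second probe of the gene gave 1.15 and 1.32. Tpp1, tripeptidyl peptidase, had 1.28 and 1.61 in transgenic macrophages with tumour material, against 2.20, 2.51 and 2.35 in transgenic controls, and 1.45, 1.54 and 1.35 in wild-type macrophages with tumour material, against 2.60, 2.62 and 2.41 in wild-type controls. The groups were apart in both genotypes, with a log2 difference of -0.76 (SE 0.18, adjusted p = 0.00943; 0.091 without transgenic control replicate 3) and -1.09 (SE 0.14, adjusted p = 7.34e-05). Grn, progranulin, had differences of -0.81 (SE 0.37) and 0.04 (SE 0.28) and was not called. Without transgenic control replicate 2 it was called lower in transgenic macrophages (-1.07, limma's adjusted p = 0.0112).

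**Figure D2:**
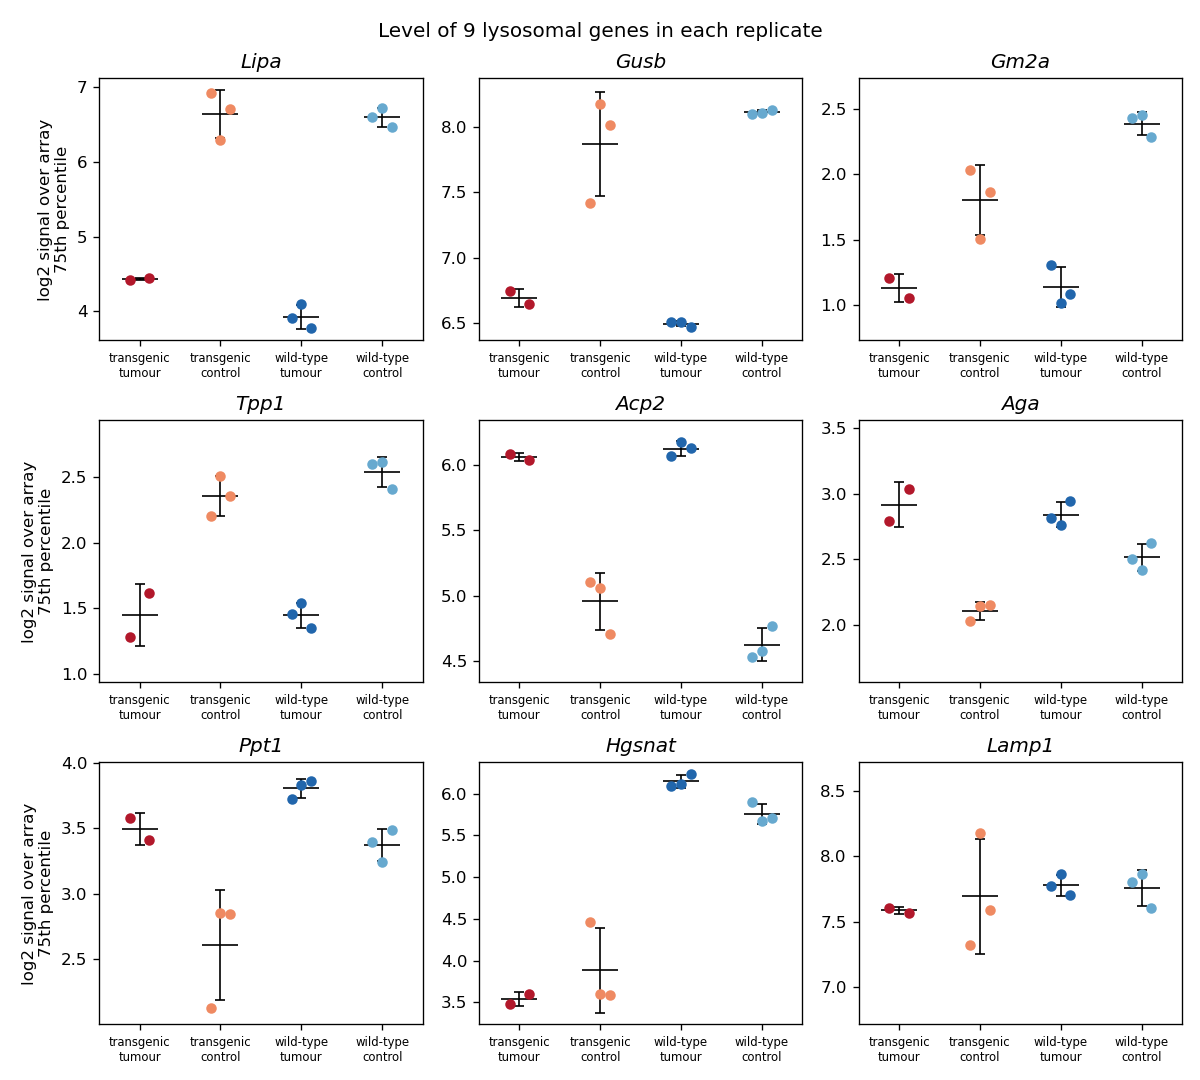
Level of 9 of the genes in each replicate, as log2 signal over the array's 75th percentile, in transgenic macrophages with tumour material, transgenic controls, wild-type macrophages with tumour material and wild-type controls; points are replicates, and black bars the mean and SD of 2 or 3 replicates. Lipa, Gusb, Gm2a and Tpp1 are lower and Acp2, Aga and Ppt1 higher with tumour material in both genotypes, Hgsnat is lower in both transgenic groups, and the Lamp1 groups overlap within each genotype.

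For 10 of the genes more than 1 probe was above background, which gave 11 further probes to set beside the brightest. In the response to tumour material the further probe had the opposite sign in 5 of 11 pairs in transgenic and 2 of 11 in wild-type macrophages, and 3 of 11 pairs differed by more than 1 in each genotype. Those 3 were Sgsh, Idua and Slc17a5. The brightest Idua probe gave 0.22 and 0.24 in transgenic and wild-type macrophages, while its other probe gave -2.30 and -1.99. Slc17a5 was lower on both probes, with -1.09 and -1.10 on the brightest and -2.89 and -3.06 on the other. Probes of Acp2 and Laptm5 gave nearly the same differences. With the mean of a gene's probes in place of the brightest, Sgsh had -0.07 in transgenic and -0.32 in wild-type macrophages. The positions of the probes on the transcripts were not used here.

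**Figure D3:**
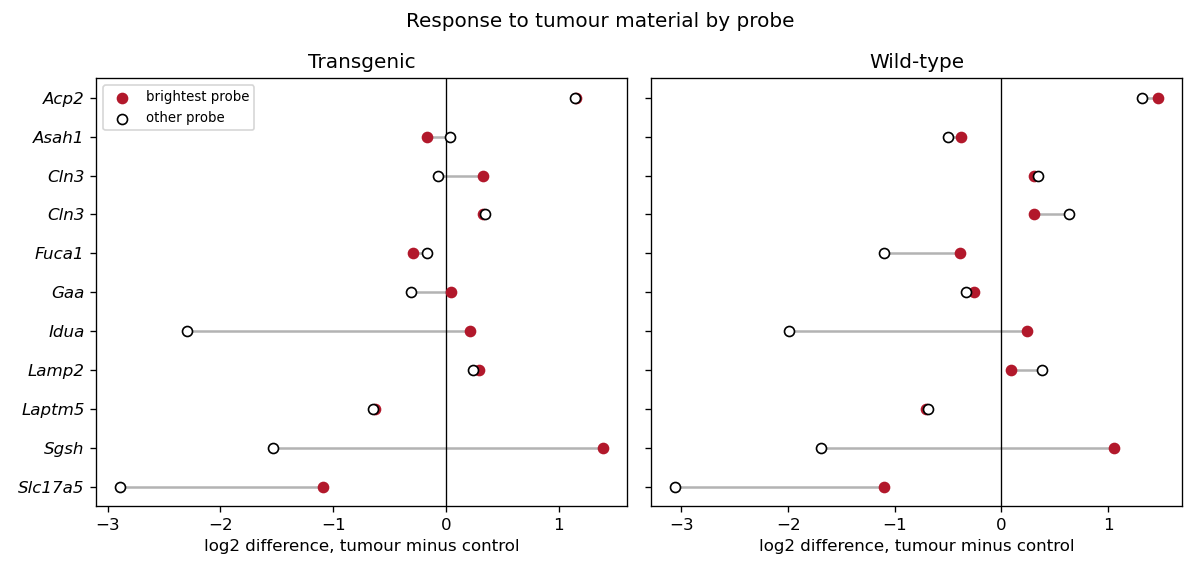
Log2 difference between tumour material and control by the brightest probe (filled) and each further probe (open) of the genes with several probes above background, in transgenic (left) and wild-type (right) macrophages; Cln3 has 2 further probes. Sgsh and Idua have probes on both sides of 0 in both genotypes, and Slc17a5 has both probes below 0.

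Between transgenic and wild-type macrophages more of these genes were called in control medium than with tumour material, all of them lower in transgenic macrophages. A gene that was not called may still differ, as the groups had 2 or 3 replicates. With tumour material 0 of the 38 genes were called higher and 1 lower (2.63%) in transgenic than in wild-type macrophages, where 1.97% of all genes were called higher and 2.56% lower. The count called lower was thus near the share of all genes. In control medium 0 were called higher and 7 lower (18.4%), where 3.59% of all genes were called higher and 5.24% lower. By limma's unadjusted p of 0.05, 6 were higher (Cd63, Npc1, Naglu, Manba, Lipa and Smpd1) and 4 lower with tumour material, where 8.55% of all genes were higher and 9.70% lower at that p. In control medium 1 was higher (Acp2) and 11 lower, where 10.8% of all genes were higher and 14.3% lower. The median difference over the 38 genes was 0.08 with tumour material (-0.01 over all genes tested) and -0.18 in control medium (-0.03 over all genes tested). Over the 38 genes the differences of the 2 comparisons had a Pearson correlation of 0.660 and a Spearman correlation of 0.413. The Pearson correlation over all genes was 0.462. The 2 comparisons share no group, but they share the fit and its slide term, so they are not independent estimates. The counts depended on single libraries. In control medium 1 was called lower without wild-type control replicate 3, which left 1.76% of all genes called lower, 2 without wild-type tumour replicate 1 or 3, and 3 without transgenic tumour replicate 3 or wild-type control replicate 1 or 2; 1 was called higher without transgenic control replicate 2 (Grn) or 3 (Acp2). With tumour material 4 were called higher without transgenic control replicate 1 (Lipa, Naglu, Npc1 and Smpd1), 3 without transgenic control replicate 2 (Lipa, Npc1 and Smpd1) and 1 (Npc1) without transgenic tumour replicate 2 or transgenic control replicate 3, and 2 were called lower (Hgsnat and Ppt1) without transgenic control replicate 1 or 2. The calls over all genes moved in the same fits: 6.04% of all genes were called higher and 6.97% lower without transgenic control replicate 1, 3.57% and 4.11% without transgenic control replicate 2, 2.53% and 3.26% without transgenic control replicate 3, and 1.74% and 2.61% without transgenic tumour replicate 2. Without transgenic tumour replicate 2 the group is replicate 3 alone, on 2 arrays, and it is assumed to vary like the other groups. Within slide 1 the control-medium comparison called 3 lower. Within slide 2 limma called 0 of the 15834 genes in either comparison. At an unadjusted p of 0.05 there, 1 of the 38 was higher and 1 lower with tumour material (1770 of all genes passed), and 2 were higher and 3 lower in control medium (2124 of all genes passed).

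Hgsnat, the membrane acetyltransferase that prepares heparan sulfate for Naglu, was the gene called lower in both media. It stood at 3.48 and 3.60 in transgenic macrophages with tumour material, against 6.09, 6.11 and 6.23 in wild-type macrophages with tumour material, and at 4.47, 3.60 and 3.59 in transgenic controls, against 5.89, 5.67 and 5.71 in wild-type controls. Every transgenic replicate lay more than 1 unit below every wild-type replicate. The gene was 5.45-fold lower with tumour material (log2 -2.45, SE 0.22, adjusted p = 0.000117) and 3.59-fold lower in control medium (log2 -1.84, SE 0.18, adjusted p = 0.00015). Both calls were kept without any 1 replicate and under every setting but slide 2 alone, where the adjusted p-values were 0.0582 and 0.0767. Pomk, the next protein-coding gene on one side of Hgsnat in RefSeq, was lower in transgenic macrophages too, with a log2 difference of -1.48 with tumour material and -0.79 in control medium. Whether the transgenic and wild-type mice differ in the DNA at these neighbouring genes was not tested.

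The other 6 genes called lower in control medium came from 5 of the 6 role groups. Ppt1 had 2.13, 2.85 and 2.85 in transgenic controls against 3.40, 3.24 and 3.48 in wild-type controls, a difference of -0.81 (SE 0.15, adjusted p = 0.0077). Cln3 had 5.84, 5.97 and 6.62 in transgenic controls against 6.88, 6.97 and 6.93 in wild-type controls, a difference of -0.80 (SE 0.23, adjusted p = 0.0479). Lamp2, which also takes part in chaperone-mediated autophagy, had 5.93, 6.01 and 5.75 in transgenic controls against 6.20, 6.32 and 6.35 in wild-type controls, a difference of -0.40 (SE 0.10, adjusted p = 0.0341). In all 3 genes the transgenic controls lay below the wild-type controls without overlap, and for Cln3 and Lamp2 the nearest replicates of the 2 genotypes were close. Sgsh, Gm2a and Aga differed by -0.59 (SE 0.16, adjusted p = 0.0367), -0.55 (SE 0.14, adjusted p = 0.034) and -0.44 (SE 0.11, adjusted p = 0.0272), also without overlap. These values are those of the brightest probe, and the other probes of Cln3, Lamp2 and Sgsh gave smaller differences in control medium: -0.31 and -0.11 for Cln3, -0.08 for Lamp2 and -0.18 for Sgsh. With the mean of a gene's probes all 3 calls were lost, with log2 differences of -0.41 for Cln3 (adjusted p = 0.076), -0.24 for Lamp2 (0.161) and -0.39 for Sgsh (0.0994). None of these 6 calls held without every single replicate: Ppt1 had an adjusted p of 0.079 without replicate 3 of the wild-type controls, and the others without 5 to 8 of the 11 replicates in turn (adjusted p 0.050 to 0.225). With tumour material their differences were -0.51 for Ppt1, -0.78 for Cln3, -0.20 for Lamp2, -0.25 for Sgsh, 0.04 for Gm2a and 0.05 for Aga, none past the threshold. Lamp1 differed by -0.02 (95% interval -0.46 to 0.43) with tumour material and -0.01 (-0.37 to 0.36) in control medium, and Cd68 by 0.12 (-0.37 to 0.61) and -0.33 (-0.74 to 0.07).

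**Figure D4:**
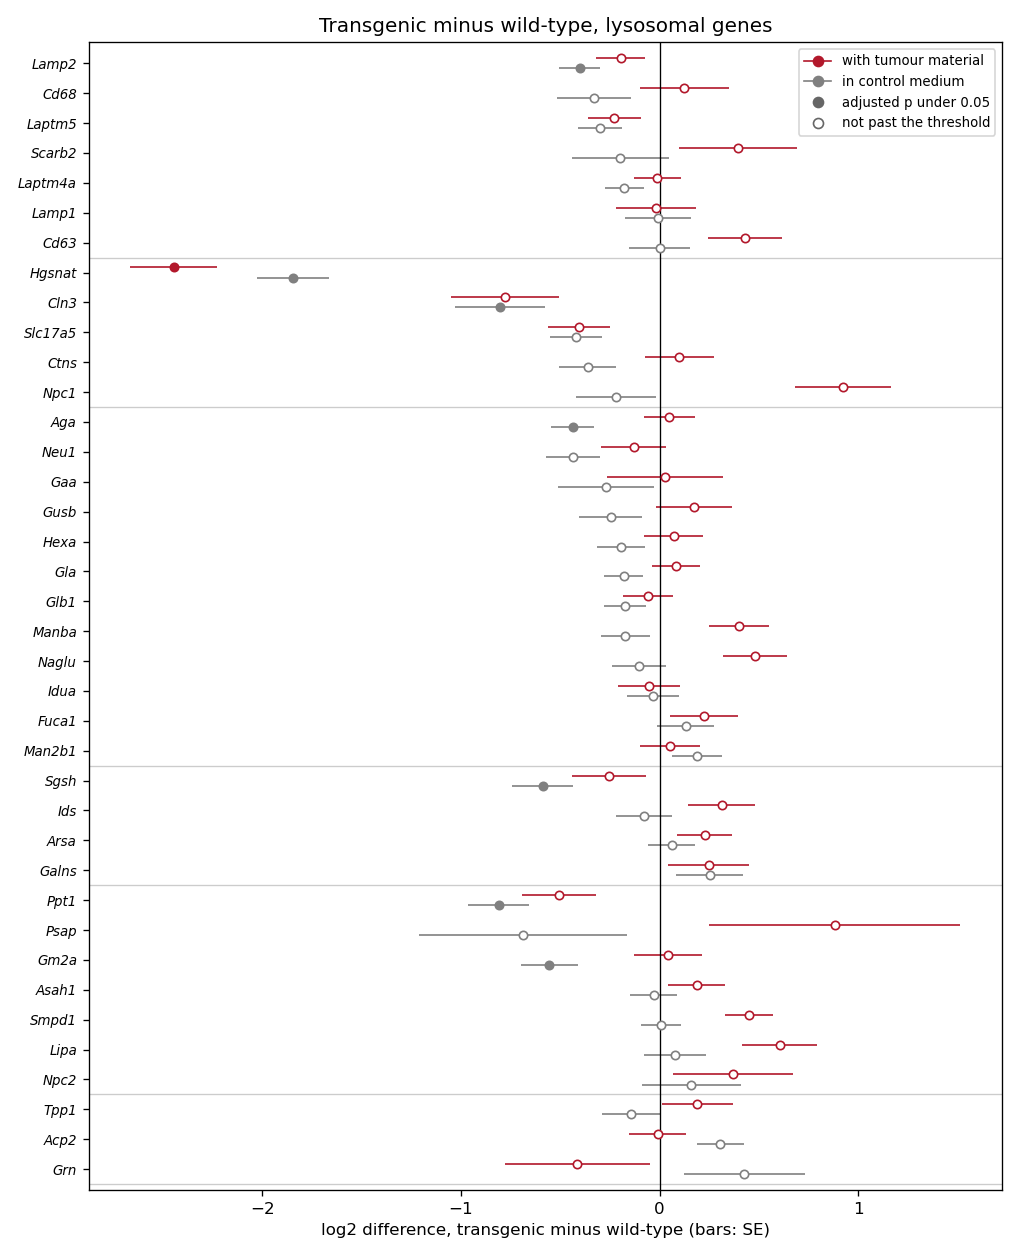
Log2 difference between transgenic and wild-type macrophages for each of the 38 genes with tumour material (red) and in control medium (grey), with the SE of the fit as bars and the same role groups from top to bottom. Filled points had an adjusted p under 0.05; Hgsnat lies farthest to the left at -2.45 and -1.84, and Npc1 farthest to the right with tumour material at 0.92.

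The response to tumour material was tested for a difference between the genotypes, and none of the 38 genes passed in limma, where 1.02% of all genes were called higher and 0.928% lower in this test. At an unadjusted p of 0.05, 6 were higher (Npc1, Naglu, Manba, Aga, Smpd1 and Gm2a) and 0 lower, where 6.69% of all genes were higher and 5.68% lower. The transgenic response was the more positive for 31 of the 38 genes, against 51.7% of all genes tested, with a median difference of 0.28 (0.02 over all genes tested). Npc1, singled out after its values were seen, had the lowest adjusted p: the difference between the responses was 1.14 (95% interval 0.47 to 1.82, adjusted p = 0.101). Its replicates stood at 1.72 and 2.31 in transgenic macrophages with tumour material, against 1.93, 1.65 and 1.83 in transgenic controls, and at 1.60, 1.44 and 1.26 in wild-type macrophages with tumour material, against 2.24, 2.07 and 1.94 in wild-type controls. The transgenic groups overlapped and the wild-type groups did not. Without transgenic control replicate 1 it passed (adjusted p = 0.0374), as did 4.07% of all genes in the same direction. It also passed without transgenic tumour replicate 2 (adjusted p = 0.0439), where 1 replicate is left in that group and the spread comes from the others.

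**Figure D5:**
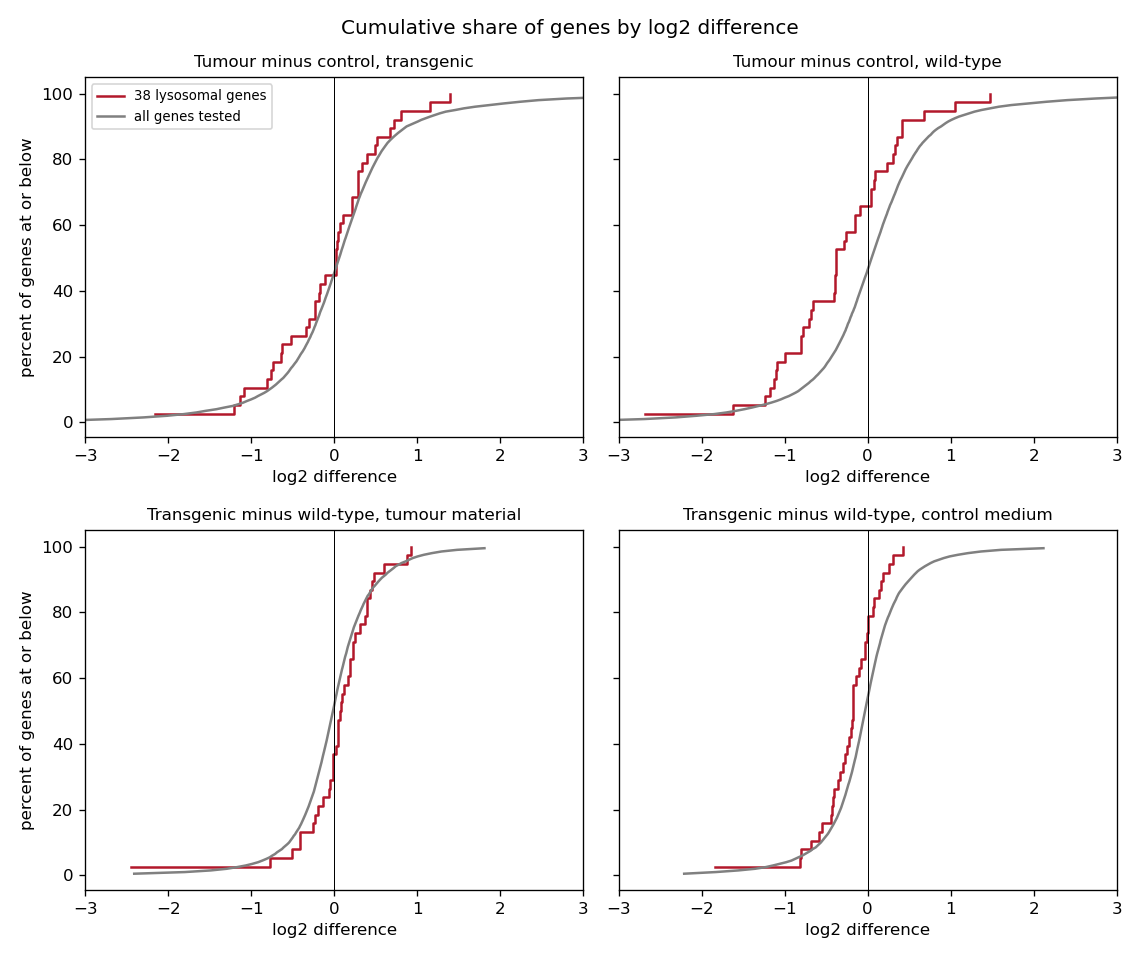
Cumulative percent of genes at or below each log2 difference, for the 38 genes (red steps) and for all genes tested (grey), in the response to tumour material of transgenic and wild-type macrophages (top) and in the comparison of transgenic with wild-type macrophages with tumour material and in control medium (bottom). The red line lies left of the grey one through most of its middle in wild-type macrophages (medians -0.38 and 0.05) and in control medium (medians -0.18 and -0.03).

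The 8 genes with TCACGTG in the printed windows were compared with the 25 tested genes whose window lacks it. In the response to tumour material, 1 of the 8 was called higher (Sgsh) and 0 lower in transgenic macrophages, with a median of 0.04, and 1 higher and 2 lower (Naglu and Arsa) in wild-type macrophages, with a median of -0.13. The call of Sgsh is that of its brightest probe. Its second probe was lower, with -1.54 in transgenic and -1.69 in wild-type macrophages. Of the 25 without the motif, 3 were called higher and 9 lower in transgenic macrophages (median -0.11), and 3 higher and 13 lower in wild-type macrophages (median -0.40). Over all genes, 15.1% were called higher and 10.2% lower in transgenic macrophages, and 23.2% and 16.8% in wild-type macrophages. Between transgenic and wild-type macrophages the 8 had medians of 0.01 with tumour material and -0.18 in control medium, and the 25 had medians of 0.10 and -0.18. In control medium 2 of the 8 (Cln3 and Sgsh) and 3 of the 25 were called lower, where 5.24% of all genes were called lower. With the mean of a gene's probes Cln3 and Sgsh lost that call (limma's adjusted p = 0.076 and 0.0994). Of the 5 genes with TCATGTG, Ppt1 was called higher and Tpp1 lower with tumour material in both genotypes. Gla, Grn and Scarb2 were not called in either genotype. These are counts of small sets with no test.

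Genes that make and fill the lysosome were measured beside them. Of 16 genes for enzyme delivery and maturation, 5 were called higher (31.25%) and 1 lower (6.25%) with tumour material in transgenic macrophages. In wild-type macrophages 5 were called higher (31.25%) and 3 lower (18.75%). Over all genes, 15.1% were called higher and 10.2% lower in transgenic macrophages, and 23.2% and 16.8% in wild-type macrophages. The sorting receptor Sort1 fell in both, with differences of -3.37 (SE 0.50, adjusted p = 0.000485) in transgenic and -5.23 (SE 0.39, adjusted p = 1.09e-06) in wild-type macrophages, while M6pr, the small mannose 6-phosphate receptor, rose by 1.28 and 1.23 (adjusted p = 0.000107 and 8.56e-06). The adaptor subunits Ap1b1 and Ap3b1 rose too, by 0.81 and 0.59 in transgenic and by 0.38 and 0.56 in wild-type macrophages. M6pr was also lower in transgenic than in wild-type controls (-0.46, adjusted p = 0.0441).

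Of 29 other lysosomal enzymes and membrane proteins above background, 8 were called higher (27.6%) and 4 lower (13.8%) with tumour material in transgenic macrophages. There 15.1% of all genes were called higher and 10.2% lower. In wild-type macrophages 6 were called higher (20.7%) and 9 lower (31.0%), where 23.2% of all genes were called higher and 16.8% lower. In transgenic and wild-type macrophages Galc, galactosylceramidase, had differences of -1.94 and -1.77, and Acp5, tartrate-resistant acid phosphatase, of 2.01 and 1.67. The phospholipase Pla2g15 had differences of -0.96 and -1.74, and all of these passed the threshold. In control medium 5 of the 29 were called lower and 0 higher in transgenic macrophages, where 5.24% of all genes were called lower and 3.59% higher. Among the 5 were Naaa (-0.98) and the calcium channel Mcoln1 (-0.62). With tumour material 1 was called higher, Litaf (0.85), where 1.97% of all genes were called higher.

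Among 11 cathepsins above background, Ctsf fell (-1.20 and -1.13) and Ctsh rose (0.62 and 0.45) with tumour material in transgenic and wild-type macrophages, and Ctsc rose by 1.12 in transgenic macrophages. Ctsc and Ctsh were lower in transgenic than in wild-type controls (-1.69 and -0.37), and Ctsk was higher in transgenic macrophages with tumour material, by 1.5. Of the 16 subunits of the V-ATPase, the lysosomal proton pump, 1 was called higher with tumour material in transgenic macrophages (Atp6v0c, 0.57), and 5 lower in wild-type macrophages, led by Atp6v0d2 (-1.78), Atp6v0a1 (-1.09) and Atp6v1b2 (-0.68). Over all genes, 15.1% were called higher in transgenic and 16.8% lower in wild-type macrophages. Atp6v0d2 was 1.69 higher in transgenic than in wild-type macrophages with tumour material (SE 0.30, adjusted p = 0.00776), and Atp6v1g1 was lower in control medium (-0.39).

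The MiT/TFE factors were read on the same arrays, each on its brightest probe, though Mitf and Tfe3 have 2 probes each. How their calls, and those of the companion genes above, hold on other probes, in other settings or without 1 replicate is not given. Tfeb stood at -0.01 and -0.14 in transgenic macrophages with tumour material, against 1.33, 1.35 and 0.84 in transgenic controls, and at -0.73, -0.71 and -0.62 in wild-type macrophages with tumour material, against 0.97, 0.80 and 0.87 in wild-type controls. It fell with tumour material in both genotypes, with differences of -1.16 (adjusted p = 0.000232) in transgenic and -1.55 (adjusted p = 1.67e-06) in wild-type macrophages. Between the genotypes it was 0.69 higher in transgenic macrophages with tumour material (SE 0.16, adjusted p = 0.0264) and differed by 0.31 in control medium (adjusted p = 0.164), where the groups overlapped; whether its probe reads the transgene's transcript is not stated in the labels. Tfec stood at 4.09 and 3.97 in transgenic macrophages with tumour material, against 1.69, 1.47 and 1.44 in transgenic controls, and at 4.04, 3.87 and 3.97 in wild-type macrophages with tumour material, against 2.13, 1.89 and 2.28 in wild-type controls. It rose with tumour material, by 2.47 in transgenic and 1.83 in wild-type macrophages, and was lower in transgenic than in wild-type controls (-0.61, adjusted p = 0.0212). Mitf stood at 5.86 and 5.76 in transgenic macrophages with tumour material, against 5.33, 5.29 and 5.25 in transgenic controls, and at 5.63, 5.53 and 5.52 in wild-type macrophages with tumour material, against 5.72, 5.86 and 5.71 in wild-type controls. It rose by 0.56 in transgenic macrophages, had a difference of -0.20 in wild-type macrophages (adjusted p = 0.0711) and was lower in transgenic than in wild-type controls (-0.46, adjusted p = 0.0077), and the difference between its responses passed the test (0.76, SE 0.13, adjusted p = 0.013). Tfe3 was not called in any of these comparisons, with differences between -0.20 and 0.35; its replicates stood at 6.43 and 5.87 in transgenic macrophages with tumour material, against 5.23, 5.80 and 6.23 in transgenic controls, and at 5.82, 6.52 and 5.52 in wild-type macrophages with tumour material, against 6.05, 5.60 and 6.08 in wild-type controls.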

How the data were processed

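The deposited scanner files hold spot intensities of 1-colour Agilent arrays, extracted with Agilent Feature Extraction 10.7.3.1 per the submitters' processing notes; per the file headers the processed signal is background-corrected and detrended. The authors' deposited log2 table had column medians of 2.85 and a lowest correlation of 0.999 with the scanner values, and served as an alternative; its normalization was not stated. Control and uneven spots were left out, and the log2 of the processed intensity of 55634 probes minus the array's 75th percentile was computed; the number of arrays limits the precision. Probes were named through RefSeq accessions (28311 had 1 symbol, 27323 none). limma 3.58.1 in R 4.3.3 fitted group and slide over all 4 groups, with a random block for arrays of 1 replicate and Benjamini-Hochberg adjustment. The fit was checked on simulated data with changes in the wild-type group with tumour material alone and independent noise on each array. That check did not cover the other comparisons or arrays of 1 replicate that vary together. Samples whose titles add a further number to replicate 3 were taken as second arrays of the same RNA, which the labels do not say outright.

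Replicate values are given for the 8 called genes with the farthest change in each direction of each comparison, for Lamp1, Cd68 and the MiT/TFE factors; of the other gene lists the 3 called genes with the farthest change are named, except for 1 gene that is not reported here. The genes, lists and tests were chosen with earlier results of these data known. Alternatives were other normalizations, background correction, probe and slide rules, a replicate block and each replicate left out. Over 15 pairs of equal replicate number, correlations of deviations from the fit ran from -0.481 to 0.157, and the numbers were not taken to pair samples. This check cannot exclude pairing. Outside the transgenic group with tumour material, slide 2 holds arrays of replicate 3 alone, so the slide term ties their deviations to each other.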

Additional observations from a re-analysis of the deposited data

How the results depend on the processing

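Among the single called genes under 25 other settings, 910 values kept their direction and side of the threshold, 220 lost the call and 4 turned: Fuca1 in wild-type macrophages within slide 2 (0.15), Sgsh with the mean of its probes in wild-type (-0.32) and transgenic (-0.0705) macrophages, and Gm2a in control medium with normexp (0.24), a background correction on median signals added after seeing the files. For Sgsh the probes themselves point in opposite directions; for the others the cause was not tested. Outside the single-slide settings, 6 of 15 calls in transgenic and 13 of 23 in wild-type macrophages with tumour material were kept throughout, as was 1 of 1 (Hgsnat) for the transgene with tumour material and 1 of 7 (Hgsnat) in control medium.

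In the transgenic response to tumour material, 6 genes were called higher and 9 lower; 3 were higher with normexp and with arrays averaged per replicate, and 2 higher and 3 lower within slide 2. Its median of 0.02 became -0.17 with quantile normalization and -0.17 with the deposited table, -0.088 with normexp, -0.068 with the mean of probes, -0.10 without a slide term, -0.10 without the arrays of slide column 4 and -0.10 without the repeat arrays. In the wild-type response, 6 were higher and 17 lower; 3 were higher with quantile normalization and with the deposited table, where the median was -0.49, and 0 were higher and 1 lower within slide 2.

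For the transgene in control medium, 7 were lower; 4 were lower with quantile normalization, the deposited table, the mean of probes, without the arrays of column 4 or with the replicate block, 3 within slide 1 or with averaged arrays, 2 with normexp or with no filter on dim probes, 1 with column 4 as a term and 0 within slide 2, and 1 was higher without the repeat arrays. For the transgene with tumour material, 3 were higher with normexp, 4 without the arrays of column 4 and 1 with the replicate block, and 2 were lower with the mean of probes or without the repeat arrays and 0 within slide 2. The replicate block moved no other of these counts by over 1.5 times, and 3 of 11 replicates correlated best with their own number.

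With each replicate left out in turn, the transgenic response had 3 to 6 genes higher, 4 to 10 lower and a median of -0.16 to 0.024, and the wild-type response 3 to 7 higher and 13 to 20 lower with a median of -0.38 to -0.32. Genes called only in such fits were Grn and Fuca1 (lower) in the transgenic response. In the wild-type response they were Cd68, Neu1 and Psap (lower) and Hgsnat and Idua (higher). The transgene had 0 to 4 higher and 1 to 2 lower with tumour material and 0 to 1 higher and 1 to 7 lower in control medium, and the difference between responses 0 to 1 higher and 0 lower. Within slide 2 each wild-type group and the transgenic controls have 1 array, so they are assumed to vary like the 3 arrays of the transgenic group with tumour material, of which 2 are of 1 replicate. Transgenic macrophages with tumour material have 2 replicates, which limits every comparison that uses them; with either left out, the lone replicate is assumed to vary like the other groups.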

Other observations

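Around Hgsnat, which was lower in transgenic macrophages in both media, the genes that neighbour it in RefSeq were read after its values were seen. Pomk, the next protein-coding gene on one side and a kinase of the dystroglycan glycan, stood at 2.70 and 2.47 in transgenic macrophages with tumour material, against 3.92, 4.0 and 4.13 in wild-type macrophages with tumour material, and at 2.88, 2.49 and 2.31 in transgenic controls, against 3.26, 3.17 and 3.49 in wild-type controls. It was lower in every transgenic replicate than in any wild-type replicate of the same medium, with log2 differences of -1.48 (SE 0.20, adjusted p = 0.00143) with tumour material and -0.79 (SE 0.17, adjusted p = 0.013) in control medium. Of the other 9 neighbours tested, Bag4 passed in 1 comparison, as 0.77 higher in transgenic than in wild-type controls (adjusted p = 0.041), and Plpp5, Ddhd2, Lsm1, Ash2l, Fnta, Hook3, Rnf170 and Thap1 passed in neither.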
